A study of Mus musculus with 48 samples.

Results

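TRBJ1-6 is a joining (J) segment of the mouse T cell receptor β (TCRβ) locus, and all clones that used it were collected here from the repertoires of 48 libraries. It was chosen for its high share of reads in CD8+ tumor repertoires, so its level there is given as a description with no test. Of 959731 clone entries in the 48 libraries, 29460 carried TRBJ1-6, with 12447 in CD8+ tumor, 9018 in CD8+ node, 4078 in CD4+ node and 3917 in CD4+ tumor libraries. TRBJ1-6 is 1 of 13 J segments found, of which 12 occurred in every repertoire.

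The samples came from 4 female C57BL/6 mice (C57BL/6J in the methods of the study), 8 weeks old and numbered 5 to 8 in the labels, that carried Lewis lung carcinoma (LLC), a mouse lung tumor line, under the skin of both sides of the back. The labels name no further treatment. On day 13 the left and the right tumor and the draining lymph node (dLN) of each side were taken. CD4+ and CD8+ T cells were sorted from tumors, which had each been divided into 2 fragments, while only CD44hi cells of both subsets, antigen-experienced by that marker, were sorted from dLNs. All sorts excluded cells reached by an antibody given into the blood. The sorting gate also differed between organs, so a difference between tumor and dLN cannot be told apart from one between all T cells and CD44hi T cells. There were 32 tumor and 16 dLN libraries, and TCRβ libraries hold no other transcripts with which to check the sorted cell type.

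A TCRβ chain is made when V, D and J segments are cut and joined in the developing thymocyte, with bases trimmed and added at each junction. The joined stretch, the complementarity determining region 3 (CDR3), is the part of the chain that touches the peptide, and its last residues come from the J segment. T cells that carry the same rearrangement descend from 1 cell or, more rarely, made it independently, so a clone that divides raises the read share of its J segment while adding only 1 distinct clone.

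In the GRCm38 annotation, TRBJ1-6 is a TCR J gene on the plus strand, chr6:41535554-41535606. It lies between TRBJ1-5 and TRBJ1-7, ahead of the constant gene TRBC1, in the first D-J-C cluster of the locus. TRBD1, at chr6:41533201-41533212, lies before it, and TRBD2, at chr6:41542163-41542176, lies behind it. The germline sequences, taken from the GENCODE transcripts of that build, show what a TRBJ1-6 clone can inherit. In the J segment, capitals mark the 25 of 53 bases that fall within the CDR3, which encode SYNSPLYF.
TRBJ1-6: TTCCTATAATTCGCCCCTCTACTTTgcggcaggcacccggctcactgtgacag
TRBD1: gggacagggggc
TRBD2: gggactgggggggc

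The clones that led TRBJ1-6 in the CD8+ tumors are shown next, since the high read share of the segment in mice 6 and 8 turns on them. For each mouse these are the most frequent TRBJ1-6 clones over both CD8+ tumors with the V segment before the bases of the CDR3. Capitals mark the run of bases, read from the 3′ end, that matches germline TRBJ1-6.
Mouse 5, TRBV26: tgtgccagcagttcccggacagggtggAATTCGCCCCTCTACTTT
Mouse 5, TRBV13-1: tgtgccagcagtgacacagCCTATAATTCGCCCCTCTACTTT
Mouse 6, TRBV26: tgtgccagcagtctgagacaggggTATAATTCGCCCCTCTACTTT
Mouse 6, TRBV26: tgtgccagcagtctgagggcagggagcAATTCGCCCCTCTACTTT
Mouse 7, TRBV26: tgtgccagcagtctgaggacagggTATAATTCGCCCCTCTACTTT
Mouse 7, TRBV2: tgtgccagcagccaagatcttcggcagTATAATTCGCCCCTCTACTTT
Mouse 8, TRBV26: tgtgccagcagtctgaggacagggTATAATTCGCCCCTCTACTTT
Mouse 8, TRBV26: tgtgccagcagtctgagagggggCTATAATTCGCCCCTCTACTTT
The first clone given for each mouse is the leading one and used TRBV26 in 4 of 4 mice, and these 8 clones kept between 18 and 23 of the 25 germline bases. The leading clones of mouse 7 and mouse 8 had the same bases throughout.

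The deposited libraries held 326582 to 4840722 reads. Each was drawn at random to 6 reads per sorted cell, the fragments of a tumor were added, and the value of a mouse was the mean of its left and right repertoire. Rearrangements that differed in any CDR3 base, or in V or J, were kept apart as separate clones. Intervals on shares are 95% Wilson intervals on estimated cells and cover counting error only.

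TRBJ1-6 made up a similar share of distinct clones in all 4 groups, while its share of reads ranged widely between mice in the CD8+ tumors. In mouse 5, TRBJ1-6 held 1.94% of the left and 2.11% of the right CD8+ tumor reads. It held 20.04% (95% interval 19.9 to 20.2) and 18.7% (18.5 to 18.8) in mouse 6. The shares were 2.62% and 2.64% in mouse 7, and 8.57% and 7.88% in mouse 8. Mice 6 and 8 lay above every dLN repertoire, mouse 5 lay below them, and the sides of a mouse were close to each other. The mean of CD8+ tumors was 8.06% ± 8.03 (SD, n = 4 mice), so the SD was nearly as large as the mean.

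In CD8+ dLNs the read share was 2.75%, 3.07%, 2.74% and 2.90% in mice 5 to 8, and in CD4+ dLNs it was 2.72%, 3.43%, 2.88% and 3.79%. In CD4+ tumors the mouse values were 4.08%, 5.65%, 2.48% and 4.08%. The group means were 2.86% ± 0.156 in CD8+ dLNs, 3.203% ± 0.494 in CD4+ dLNs and 4.07% ± 1.30 in CD4+ tumors (SD, n = 4). The mice of these 3 groups overlapped. Mouse 6 had the highest read share in CD8+ tumors, CD4+ tumors and CD8+ dLNs, and mouse 8 in CD4+ dLNs.

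**Figure D1:**
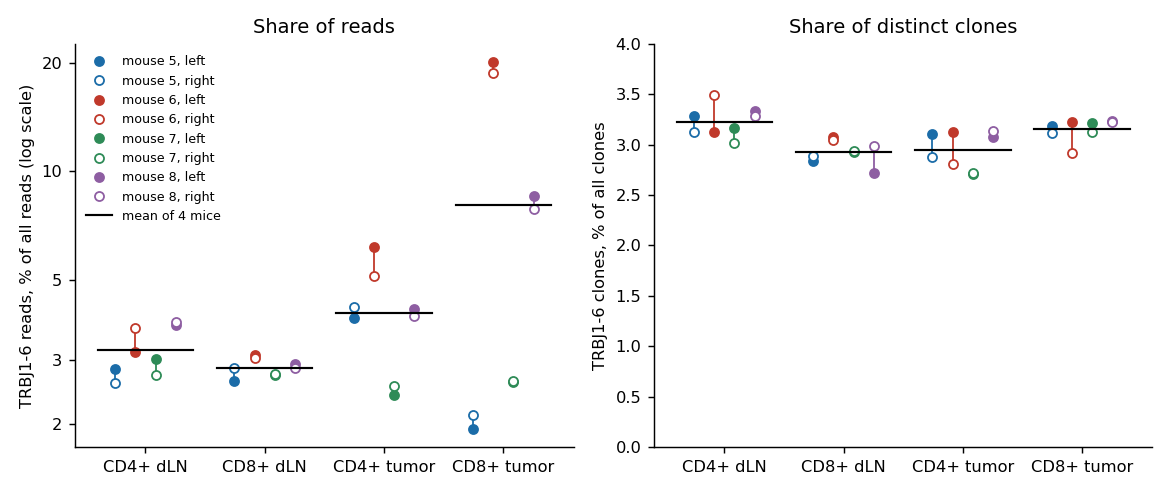
TRBJ1-6 reads as a percentage of all reads (left panel, log axis) and TRBJ1-6 clones as a percentage of all distinct clones (right panel, axis from 0) in the left (filled) and right (open) repertoires of 4 mice; horizontal lines are means of 4 mice. The CD8+ tumor read shares run from 1.94% to 20.04%, while all clone shares lie between 2.71% and 3.49%.

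By distinct clones, TRBJ1-6 made up 3.16% ± 0.0638 in CD8+ tumors, with mouse values of 3.15%, 3.07%, 3.17% and 3.23%. It made up 2.93% ± 0.0966 in CD8+ dLNs, 3.23% ± 0.105 in CD4+ dLNs and 2.94% ± 0.165 in CD4+ tumors (SD, n = 4). The 19.4% of reads that mouse 6 had in its CD8+ tumors thus came with the lowest clone share of that group. The ratio of read share to clone share was between 0.934 and 1.02 in CD8+ dLNs, between 0.912 and 1.91 in CD4+ tumors and between 0.644 and 6.30 in CD8+ tumors.

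The comparisons open to a test were those between CD4+ tumor and CD4+ dLN and between the CD4+ and CD8+ dLNs. Each used an exact two-sided permutation test over 70 splits of 8 mouse values, whose smallest possible p is 0.0286, with Benjamini-Hochberg adjustment over the 12 J segments. The groups compared came from the same 4 mice, which this test does not use. With the mouse as a block the smallest possible p is 0.125, so that no difference reported as passing here or for CDR3 length passes. The read share differed by 0.867 percentage points between CD4+ tumor and CD4+ dLN (exact permutation p = 0.257, adjusted 0.539), and was higher in the tumor in 3 of 4 mice. In this comparison 0% of the J segments passed, and 16.7% had an unadjusted p under 0.05. Between CD4+ and CD8+ dLNs the read shares differed by 0.339 percentage points (exact permutation p = 0.343, adjusted 0.374), where 0% of the J segments passed and 41.7% had an unadjusted p under 0.05. Neither difference exceeded the spread between mice.

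The clone share was higher in CD4+ than in CD8+ dLNs by 0.303 percentage points, with the 4 CD4+ mice between 3.09% and 3.31% and the 4 CD8+ mice between 2.85% and 3.06%, and the groups did not overlap (exact permutation p = 0.0286, adjusted 0.0381). With the mouse as a block this call was lost (exact sign-change permutation p = 0.125, adjusted 0.15). Of the J segments, 75% passed in this comparison, so TRBJ1-6 did not stand apart in differing. The clone share of CD4+ tumors was lower than that of CD4+ dLNs by 0.284 percentage points, in 4 of 4 mice, but did not pass (exact permutation p = 0.0571, adjusted 0.0857), where 0% of the J segments passed and 50% had an unadjusted p under 0.05. It passed when clones under 6 reads were left out, when the sides were added, or when clones were defined by amino acids (adjusted p = 0.0429, 0.0490 and 0.0490 in the exact permutation test). With amino acid clones the difference between the dLNs no longer passed (adjusted p = 0.0623).

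The left and right repertoires carry the mouse as a shared number. In CD4+ tumors the read shares of the 2 sides differed by 0.421 percentage points within and by 1.59 between mice (exact permutation test over 24 pairings, one-sided p = 0.0833, adjusted 0.0909). In CD4+ dLNs the values were 0.286 and 0.644 (p = 0.0833, adjusted 0.2), and in CD8+ dLNs 0.0939 and 0.210 (p = 0.167, adjusted 0.5), by the same exact test. None passed, the smallest p over 24 pairings is 0.0417, and 0% of the 12 J segments passed in any of these 3 groups. In CD8+ tumors, without a test, the sides differed by 0.563 within and by 9.59 percentage points between mice. The 2 fragments of a tumor gave TRBJ1-6 read shares 0.155 to 2.25 percentage points apart in CD8+ tumors and 0.0775 to 0.765 apart in CD4+ tumors. The widest gap, in the right CD8+ tumor of mouse 6, was between 19.7% and 17.4%.

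A small number of clones held most of the CD8+ tumor share in mice 5, 6 and 8, but not in mouse 7. The most frequent TRBJ1-6 clone of each CD8+ tumor, averaged over the sides, took 41.1% of the TRBJ1-6 reads in mouse 5, 71.6% in mouse 6, 12.7% in mouse 7 and 68.8% in mouse 8. In mouse 5 this was the TRBV26 clone on the left (43.6%) and the TRBV13-1 clone on the right (38.6%), and in the other mice 1 clone led on both sides. Averaged in the same way, the most frequent TRBJ1-6 clone took 0.669% to 1.99% in the mice of CD8+ dLNs, 2.83% to 5.98% in CD4+ dLNs and 7.20% to 13.99% in CD4+ tumors. The effective number of TRBJ1-6 clones, the inverse of the summed squared shares, was 4.08, 1.88, 20.1 and 1.98 in the CD8+ tumors of mice 5 to 8, against 436 to 590 in CD8+ dLNs. It was 88.2 to 146 in CD4+ dLNs and 20.9 to 43.1 in CD4+ tumors. The 1.88 of mouse 6 came from 983 to 1292 distinct TRBJ1-6 clones per repertoire, so the other clones were many and rare.

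When the most frequent TRBJ1-6 clone of each CD8+ tumor was left out, TRBJ1-6 held 1.21%, 6.38%, 2.30% and 2.71% of the remaining reads in mice 5 to 8, a mean of 3.15% ± 2.24. Treated in the same way, the CD8+ dLNs held 2.72% to 3.03%. Mouse 6 lay above that range, and mouse 8, with 2.56% on the left and 2.85% on the right, lay close to it. Of the 69 clones that reached 1% of the reads in CD8+ tumors, 6 used TRBJ1-6, 4 of them in mouse 6 and 2 in mouse 8, and 5 of the 6 used TRBV26. Of the 292 clones that reached 0.1% in CD8+ tumors, 15 used TRBJ1-6, which is 5.14%. In CD4+ tumors 35 of 588 such clones used it, which is 5.95%, and none of the 13 that reached 1%.

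**Figure D2:**
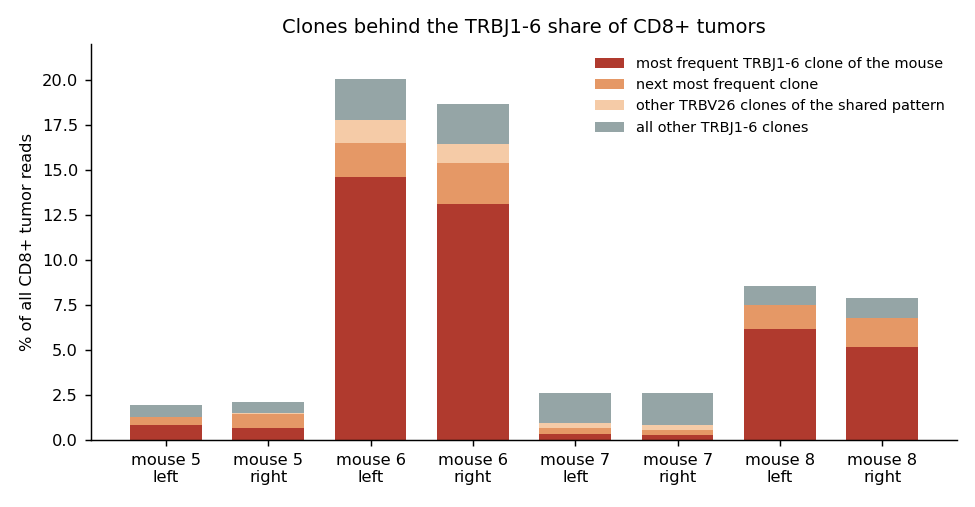
Percentage of all reads of each CD8+ tumor held by TRBJ1-6, stacked by the leading TRBJ1-6 clone of the mouse, the next clone, other TRBV26 clones of the pattern described in the text, and all other TRBJ1-6 clones. The leading clone gives 14.6% of 20.04% in the left tumor of mouse 6 and 0.375% of 2.62% in the left tumor of mouse 7.

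The leading clone of mouse 6 held 14.6% of the reads in the left tumor (95% interval 14.5 to 14.7) and 13.1% in the right (13.0 to 13.2). It made up 0.0505% and 0.0391% of the reads in the left and right CD8+ dLN, where it was also the leading TRBJ1-6 clone. The next clone of mouse 6, also with TRBV26, held 1.86% and 2.31% in the tumors and 0.0157% and 0.00611% in the CD8+ dLNs. The fold values of tumor over dLN were 309 for the leading and 191 for the next clone. The CD8+ tumor clones named here were chosen for their tumor frequency, which raises such a fold, so the folds are a description only.

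In mouse 8, the leading clone held 6.17% (6.10 to 6.24) and 5.18% (5.12 to 5.24) of the tumor reads, and 0.0542% and 0.0607% of the CD8+ dLN reads. The next clone of mouse 8 held 1.35% and 1.59% in the tumors and 0.0156% and 0.0205% in the dLNs. The fold values of tumor over dLN were 98.8 and 81.6.

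The leading clones of the other two mice stayed below 1%. In mouse 5, the TRBV26 clone held 0.848% and 0.675% of the tumor reads, with 0.0210% and 0.00389% in the CD8+ dLNs. The TRBV13-1 clone of mouse 5 held 0.430% on the left and 0.815% on the right, so its order with the TRBV26 clone turned between the sides. In mouse 7, the TRBV26 clone held 0.375% and 0.295%, and was found in the right CD8+ dLN alone, at 0.000374%, below the floor of 3 reads. The TRBV2 clone of mouse 7 held 0.295% and 0.265% of the tumor reads and was not found in either CD8+ dLN, where 3 reads would be 0.000825% on the left and 0.000561% on the right.

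None of these 8 clones was found in a CD4+ dLN. In CD4+ tumors they made up at most 0.0294% of the reads, the highest value being that of the leading clone of mouse 6 on the right. TRBJ1-6 clones at least 10 times more frequent in the CD8+ than in the CD4+ tumors of the mouse held 0.0291% to 0.3996% of the TRBJ1-6 reads of CD4+ tumors. Without them the CD4+ tumor share of TRBJ1-6 was 4.07%, 5.63%, 2.48% and 4.07%.

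**Figure D3:**
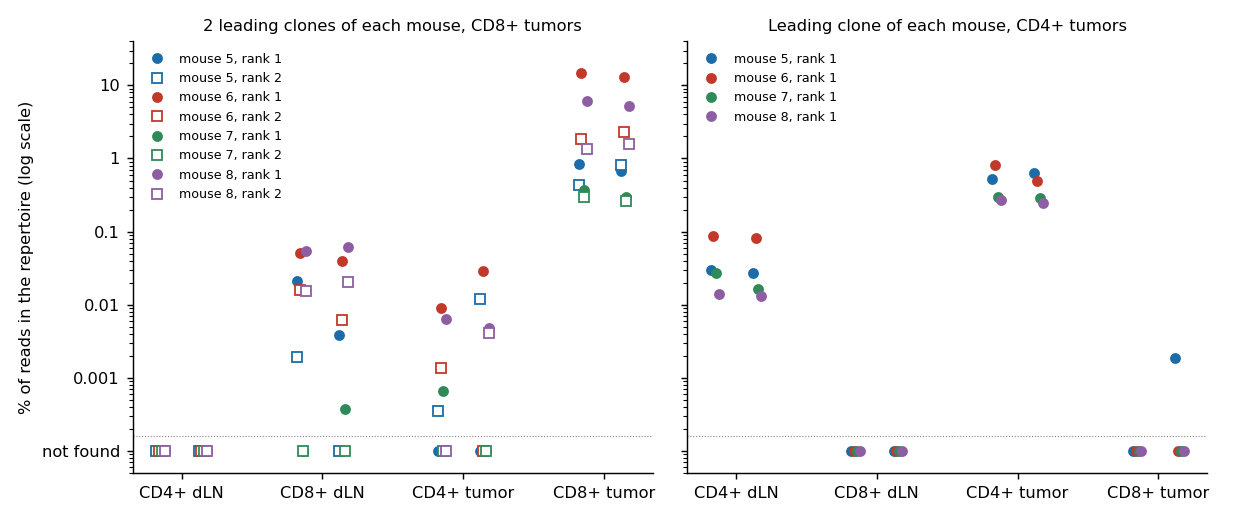
Percentage of reads, on a log axis, of the leading TRBJ1-6 clones of each mouse in the 4 kinds of repertoire, with the left side plotted to the left of the right side; points under the dotted line were not found. The CD8+ clones (left panel) lie at or below 0.0607% in CD8+ dLNs and between 0.265% and 14.6% in CD8+ tumors, and the CD4+ clones (right panel) lie between 0.244% and 0.828% in CD4+ tumors.

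The TRBV26 clones among the leaders had 15 residues and shared the form CASS, any residue, R, any residue, G, any residue, NSPLYF. This form was written down after the clones were seen, so its counts are a description with no test. TRBV26 clones of this form held 0.770% of the CD8+ tumor reads in mouse 5, 17.1% in mouse 6, 0.628% in mouse 7 and 7.15% in mouse 8. Within TRBJ1-6 they held between 23.9% (mouse 7) and 88.5% (mouse 6) of the CD8+ tumor reads. As means of the sides of a mouse, they held 0.0152% to 0.0763% of all reads in CD8+ dLNs, up to 0.0211% in CD4+ tumors and up to 0.000954% in CD4+ dLNs, and the highest single repertoires of the last 2 groups held 0.0294% and 0.00191%. With V segments other than TRBV26, the form held up to 0.00560% of the reads of a CD8+ tumor.

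When all clones of the form were left out, TRBJ1-6 held 1.16% to 2.69% of the remaining CD8+ tumor reads, a mean of 1.78% ± 0.713. The CD8+ dLNs treated in the same way held 2.72% to 3.002%. The form was taken from leading CD8+ tumor clones, so leaving it out lowers the tumor share by the choice itself, and no difference is read from these ranges. Single repertoires overlapped, with 2.73% in the left CD8+ tumor of mouse 6 and 2.61% in the left CD8+ dLN of mouse 5. The form was carried by 15 amino acid sequences and 21 nucleotide sequences in CD8+ tumors, of which 11 amino acid sequences were found in 1 mouse only. Of the 21 nucleotide sequences, 19 held a run of at least 6 bases of TRBD1 (gggacagggggc) before the J segment, and the longest run was 9 bases. In the leading clones of mice 5, 7 and 8 the run was ggacaggg, and in that of mouse 6 gacagggg. The share of all TRBJ1-6 clones with such a run was not counted, and the form itself fixes R and G, so no excess is read from this count. TRBV26 clones of 15 residues with R at position 6 also occurred with other J segments, at 0.2497% to 12.4% of the CD8+ tumor reads of a mouse.

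The amino acid sequence of the leading clone of mice 7 and 8 was the most frequent TRBJ1-6 amino acid clone found in the CD8+ tumors of all 4 mice, at 0.000984%, 1.14%, 0.335% and 5.68% in mice 5 to 8. The value of mouse 5 came from a sequence that held 1.13% in mouse 6, and it was removed by a filter that drops a clone found at a level 100 or more times higher in a different mouse. After that filter this amino acid clone was found in 3 mice. It was built from 3 nucleotide sequences, given with the germline J run in capitals, since they show how often the same residues were built from different bases.
Mice 7 and 8: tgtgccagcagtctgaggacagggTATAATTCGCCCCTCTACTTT
Mice 5 and 6: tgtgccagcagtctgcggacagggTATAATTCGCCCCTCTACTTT
Mouse 6: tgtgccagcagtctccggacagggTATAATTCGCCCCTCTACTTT
The shared sequence of mice 7 and 8 held 0.335% in mouse 7 and 5.68% in mouse 8, and whether reads passed between libraries was not tested. The next amino acid clones found in all 4 mice, of 11 residues with TRBV13-2 and of 12 residues with TRBV12-2, held mean shares of 0.00523% and 0.00205%.

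Of the 9043 TRBJ1-6 amino acid clones of the CD8+ tumors, 27 were found in all 4 mice, which is 0.299%, against 0.604% of the clones of other J segments. In CD8+ dLNs the shares were 0.330% and 0.794%, in CD4+ dLNs 0.288% and 0.271%, and in CD4+ tumors 0.231% and 0.169%. Most TRBJ1-6 amino acid clones, 92.9% to 96.8% over the 4 groups, were found in 1 mouse only, against 89.8% to 94.6% of those of other J segments. These shares are given without a test.

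Of the TRBJ1-6 reads of CD8+ tumors, 30.7% to 96.1% belonged to clones also found in a CD8+ dLN of the mouse, with a mean of 72.9% ± 29.8. The reads of other J segments gave 70.6% ± 12.2. By distinct clones 6.38% ± 1.24 of TRBJ1-6 and 8.16% ± 0.919 of the other clones were found in a dLN. For CD4+ tumors the values by reads were 76.3% ± 1.84 and 70.4% ± 3.05 (SD, n = 4). Across the sides of a mouse, 83.9% ± 14.8 of the TRBJ1-6 reads of CD8+ tumors and 89.5% ± 1.43 of those of CD4+ tumors belonged to clones found on both sides, against 81.7% ± 5.91 and 84.3% ± 3.06 of the reads of other J segments.

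The leading TRBJ1-6 clones of CD4+ tumors, shown because they differ in V segment and in junction from those of CD8+ tumors, were spread over 3 V segments. Capitals again mark the germline J run, which is whole in mouse 5.
Mouse 5, TRBV1: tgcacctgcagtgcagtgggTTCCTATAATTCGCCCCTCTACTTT
Mouse 6, TRBV4: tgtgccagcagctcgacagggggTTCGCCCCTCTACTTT
Mouse 7, TRBV1: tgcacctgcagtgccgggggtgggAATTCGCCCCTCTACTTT
Mouse 8, TRBV15: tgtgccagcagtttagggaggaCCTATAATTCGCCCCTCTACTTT
They held 0.517% and 0.626% of the left and right CD4+ tumor reads in mouse 5 and 0.828% and 0.492% in mouse 6. In mouse 7 the values were 0.294% and 0.284%, and in mouse 8 0.272% and 0.244%. In the right tumor of mouse 8 a different TRBJ1-6 clone was the most frequent, with 7.88% of the TRBJ1-6 reads. All 4 named clones were found in both CD4+ dLNs of their mouse, at 0.0133% to 0.0862%. Their tumor over dLN ratios were 7.85 to 20.1. The clones were chosen for their tumor frequency, which raises this ratio, so it is a description only. They were absent from the CD8+ dLNs, and only that of mouse 5 was found in a CD8+ tumor, at 0.00186% on the right.

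In dLNs, leading TRBJ1-6 clones were small. In CD4+ dLNs they used TRBV13-1 (mean 0.0667% over both sides), TRBV1 (0.0937%), TRBV19 (0.114%) and TRBV13-2 (0.188%) in mice 5 to 8. In mouse 8 the last of these held 0.0726% of the left and 0.303% of the right dLN. The CD4+ tumor over dLN ratios of these clones, chosen by their dLN frequency, were 2.48, 4.52, 0.844 and 0.900 in mice 5 to 8. In CD8+ dLNs the leading clones of mice 6 and 8 were the leading tumor clones, at means of 0.0448% and 0.0575%. By the mean over both sides, a TRBV12-1 clone (0.0159%) led in mouse 5 and a TRBV12-2 clone (0.0164%) in mouse 7. In the left CD8+ dLN of mouse 5 the leading TRBV26 tumor clone, at 0.0210%, lay above the TRBV12-1 clone, at 0.00953%. The TRBV12-1 clone was not found in the CD8+ tumors of the mouse, and the TRBV12-2 clone had a tumor over dLN fold of 0.301.

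TRBJ1-6 was not joined to all V segments alike. In both dLN groups its clones used TRBV3, TRBV15 and TRBV16 less often, and TRBV19 and TRBV1 more often, than clones of other J segments. For each V segment with at least 0.5% of the clones, its share among TRBJ1-6 clones was compared with its share among all other clones by the exact two-sided permutation test over 70 splits, adjusted over the V segments of the group. In CD8+ dLNs 15 of 19 V segments passed, which is 78.9%, and in CD4+ dLNs 13 of 20, which is 65%. Both shares came from the same mice, which this test does not use. With the mouse as a block the smallest possible p is 0.125, so no V segment reported as passing could pass. The CD4+ dLN calls were all lost (0 of 20) at equal depth, with at least 2 or at least 6 reads per clone, with amino acid clones and by read shares, so each CD4+ dLN call on a V segment given here depends on these settings. In CD4+ tumors 0% of the 20 V segments passed the adjusted test, while 30% had an unadjusted p under 0.05. CD8+ tumors were not tested, since the rule used them.

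TRBV3 made up 3.02% ± 0.316 of the TRBJ1-6 clones and 10.1% ± 0.263 of the other clones in CD4+ dLNs, a ratio of 0.299 (SD, n = 4, exact permutation p = 0.0286, adjusted 0.0440). In CD8+ dLNs it made up 2.39% ± 0.116 and 7.03% ± 0.0749, a ratio of 0.340 (exact permutation p = 0.0286, adjusted 0.0362). In CD4+ tumors the values were 2.22% and 7.87% (adjusted p = 0.0952, exact permutation test), and in CD8+ tumors 3.27% and 7.70%. The groups did not overlap in any of these, and TRBV3 was rarer with TRBJ1-6 in 4 of 4 mice of each group. Of the 12 J segments, TRBJ1-6 had the lowest TRBV3 share in all 4 groups. The next lowest was 7.65% (TRBJ1-4) in CD4+ dLNs and 4.94% (TRBJ1-1) in CD8+ dLNs.

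TRBV15 and TRBV16 were also scarce. TRBV16 made up 2.21% ± 0.625 of the TRBJ1-6 clones of CD4+ dLNs against 5.87% ± 0.106 of the others, and 3.29% ± 0.369 against 8.40% ± 0.128 in CD8+ dLNs. TRBV15 made up 1.29% ± 0.264 against 3.86% ± 0.199 in CD4+ dLNs, and 1.66% ± 0.305 against 3.71% ± 0.0497 in CD8+ dLNs. All 4 passed (exact permutation p = 0.0286, adjusted 0.0440 in CD4+ and 0.0362 in CD8+ dLNs). For both V segments TRBJ1-6 had the lowest share of the 12 J segments in both dLN groups and in CD8+ tumors, and ranked 2 (TRBV15) and 3 (TRBV16) from the lowest in CD4+ tumors. TRBV17, with 0.593% of the TRBJ1-6 and 1.79% of the other clones, had the lowest ratio in CD4+ tumors after TRBV3, at 0.331. TRBJ1-2 had less TRBV17 than TRBJ1-6 in CD8+ dLNs (1.88% against 1.96%) and in CD8+ tumors (1.98% against 2.35%).

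TRBV19 made up 8.88% ± 0.626 of the TRBJ1-6 clones and 4.77% ± 0.114 of the other clones in CD8+ dLNs, and TRBV1 9.505% ± 0.541 and 5.62% ± 0.215 (both exact permutation p = 0.0286, adjusted 0.0362). Their ratios were 1.86 and 1.69, the highest of that group. Of the 12 J segments, TRBJ1-6 had the highest TRBV19 share in all 4 groups and the highest TRBV1 share in both CD8+ groups. In CD4+ dLNs TRBJ1-5 had more TRBV1 (11.1% against 10.3%), and in CD4+ tumors TRBJ1-6 ranked 9 from the lowest for TRBV1. In CD8+ tumors the same V segments led, with ratios of 1.59 and 1.49, although those clones were not tested. By reads TRBV19 turned the other way in CD8+ tumors, with 1.18% of the TRBJ1-6 reads and 3.10% of the other reads, and was higher in 0 of 4 mice. In CD4+ dLNs the highest ratios were those of TRBV12-1 (1.64) and TRBV4 (1.36), of which TRBV4 turned to a ratio of 0.873 by reads. TRBV12-1 went the other way in CD8+ dLNs, with 4.47% of the TRBJ1-6 and 7.44% of the other clones (exact permutation test, adjusted p = 0.0440 in CD4+ and 0.0362 in CD8+ dLNs), and whether the groups differed was not tested. In CD4+ tumors TRBV31 (1.596) and TRBV19 (1.59) had the highest ratios, of which TRBV31 turned to 0.994 by reads.

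**Figure D4:**
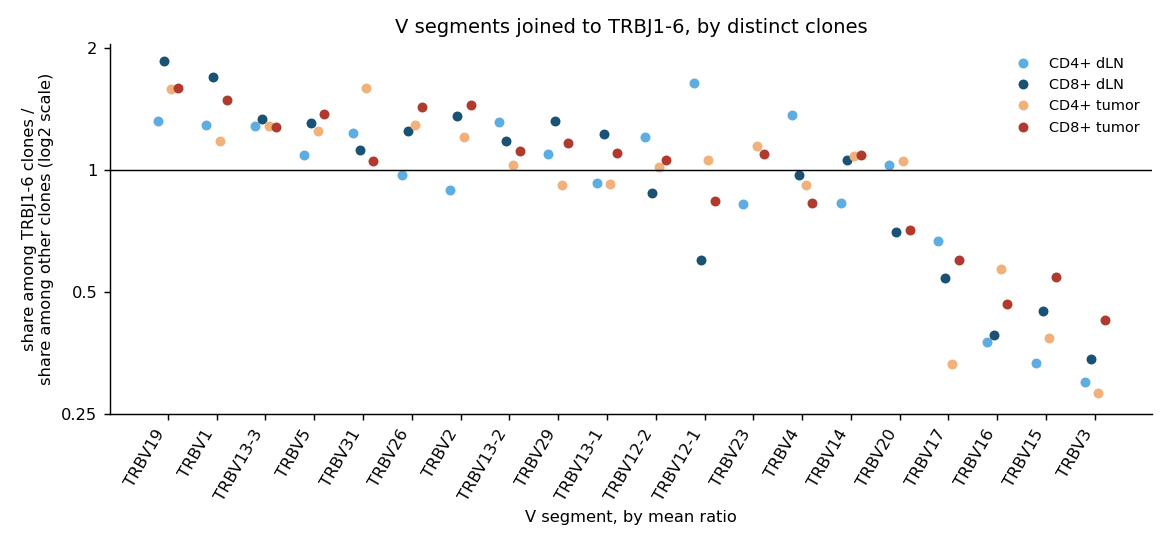
Ratio, on a log2 axis, of the share of each V segment among TRBJ1-6 clones to its share among clones of all other J segments, by distinct clones, in the 4 groups (mean over 4 mice for each share). TRBV3, TRBV15, TRBV16 and TRBV17 lie below 1 in all 4 groups, at 0.282 to 0.666, and TRBV19 and TRBV1 lie above 1 in all 4.

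By number of clones, TRBV13-2 was the most frequent partner in CD4+ dLNs (14.97% of the TRBJ1-6 clones), CD4+ tumors (18.2%) and CD8+ dLNs (10.8%), and TRBV12-2 in CD8+ tumors (12.9%). By reads the picture differed in the tumors. TRBV26 held 61.3% ± 30.7 of the TRBJ1-6 reads of CD8+ tumors while making up 3.58% ± 0.440 of the TRBJ1-6 clones there. Of the reads of other J segments it held 13.6% ± 9.48 in CD8+ tumors and 2.82% in CD8+ dLNs. Its shares of the TRBJ1-6 reads of CD8+ tumors in mice 5 to 8 were 38.7%, 88.6%, 30.8% and 87.1%, and it led in each mouse. In CD4+ tumors TRBV1 led by reads in mice 5, 6 and 7, with 17.3%, 29.4% and 38.0%, and TRBV13-2 in mouse 8, with 19.4%.

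The CDR3s of TRBJ1-6 clones were longer than those of clones with all other J segments pooled in the 3 groups tested. The mean length over distinct clones was 14.05 ± 0.0156 amino acids for TRBJ1-6 and 13.78 ± 0.0259 for other J segments in CD4+ dLNs, a difference of 0.279. The difference was 0.423 in CD8+ dLNs (14.34 and 13.91) and 0.311 in CD4+ tumors (14.20 and 13.89). All 3 had an exact permutation p of 0.0286, which is also the adjusted value over the 3 groups, and TRBJ1-6 was longer in 4 of 4 mice of each. Weighted by reads, the difference in CD4+ tumors was 0.331, in 3 of 4 mice, and did not pass (exact permutation test, adjusted p = 0.114). In CD8+ tumors, without a test, the lengths were 14.50 and 14.04. Germline J segments differ in length, and this test was run for TRBJ1-6 alone. From the longest of the 12 J segments, TRBJ1-6 ranked 5 in CD4+ dLNs and CD4+ tumors, 4 in CD8+ dLNs and 3 in CD8+ tumors. TRBJ2-2 and TRBJ2-3 had longer CDR3s in each of the 4 groups. TRBJ2-1 and TRBJ1-3 were also longer in both CD4+ groups, and TRBJ1-4 in CD8+ dLNs.

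TRBJ1-6 CDR3s were shorter in CD4+ than in CD8+ dLNs by 0.283 residues and longer in CD4+ tumors than in CD4+ dLNs by 0.148 residues (exact permutation p = 0.0286 and adjusted 0.0381 for both). The mice did not overlap in either comparison, and 75% of the J segments passed in each. Weighted by reads instead of clones, the difference between CD4+ tumor and dLN turned to -0.0506 and did not pass, and the difference between the dLNs, at -0.355, did not pass either (exact permutation test, adjusted p = 1 and 0.0571). The tumor difference was also lost when clones under 6 reads were left out (0.103, adjusted p = 0.143).

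TRBJ1-6 clones of 13 to 16 residues made up between 85.4% and 87.0% of the TRBJ1-6 clones of a group. A length of 15 residues was held by 29.0% of the TRBJ1-6 clones and 22.1% of the other clones in CD8+ dLNs, and by 32.1% and 23.3% in CD8+ tumors. By reads, 15 residues rose to 68.9% of the TRBJ1-6 reads of CD8+ tumors, with 45.5% to 91.4% in single mice, the length of the TRBV26 clones described above. In CD4+ tumors the length with the most TRBJ1-6 reads was 13 residues, at 35.6% ± 15.9, with 14.4% to 49.3% in single mice, where 15 residues reached up to 42.5%.

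**Figure D5:**
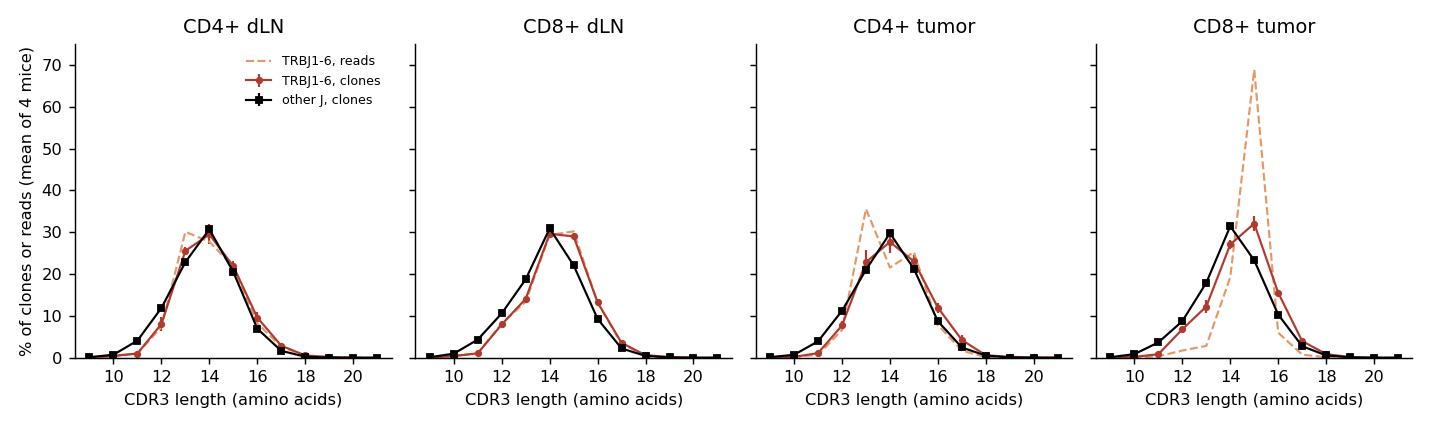
Percentage of distinct TRBJ1-6 clones (circles), of distinct clones with other J segments (squares) and of TRBJ1-6 reads (dashed) at each CDR3 length in the 4 groups; points are means of 4 mice and bars SD. TRBJ1-6 clones are shifted to longer CDR3s, and 68.9% of the TRBJ1-6 reads of CD8+ tumors lie at 15 residues.

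The J end of the clones is described without a test. Counted from the 3′ end of the CDR3, TRBJ1-6 clones kept a mean of 20.4 germline bases of 25 in CD4+ dLNs, 20.5 in CD4+ tumors, 20.8 in CD8+ dLNs and 20.9 in CD8+ tumors. All 25 were kept by 18.01%, 19.9%, 20.2% and 22.4% of the clones in that order. The residues NSPLYF ended 87.4% to 90.0% of the TRBJ1-6 clones of a group on average, and YNSPLYF 50.4% to 60.3%. YNSPLYF was the end of 46.5% to 53.9% of the clones in the mice of CD4+ dLNs, the group with the lowest mean. In CD8+ tumors, the group with the highest mean, it was the end of 59.1% to 61.6%. These extreme groups differ in subset, organ and sorting gate at once, and other J segments were not compared, so no difference is read from these ranges. TRBD1 was assigned to 53.9% to 62.1% of the TRBJ1-6 clones and no D segment to 32.7% to 41.2%. TRBD2, which lies behind TRBJ1-6 in the locus, was assigned to 4.69% to 5.23%, close to the 5.11% to 5.61% of the other TRBJ1 clones, and to 43.0% to 52.8% of the TRBJ2 clones. Both D segments share most of their bases.

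The J segments whose read share followed that of TRBJ1-6 most closely over the 16 mouse and group values were TRBJ1-2 (Pearson's r of log2 shares 0.32) and TRBJ2-1 (r = 0.22). These values share mice and libraries, and the shares of J segments add up to a fixed total. Without mouse 6 the r values turned to -0.37 and -0.17 over 12 values, so this order rested on 1 mouse. The highest r values without mouse 6 were those of TRBJ1-5 (0.88, against 0.13 with all mice) and TRBJ1-4 (0.62, against -0.25). TRBJ2-7 ran opposite to TRBJ1-6, at -0.92 with all mice and -0.79 without mouse 6. TRBJ1-5, TRBJ1-4 and TRBJ2-7 were singled out after their values were seen.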

How the data were processed

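The authors trimmed reads with Cutadapt (3.2 per the labels), filtered reads with PRINSEQ, ran MiXCR against the TCR segments of IMGT and deposited, for each clone, a read count and its fraction of the library. No molecular identifiers were used. The deposited counts precede down-sampling, so each of the 48 libraries (326582 to 4840722 reads, 8.61 to 47.2 per sorted cell) was drawn without replacement to 6 reads per sorted cell with a fixed seed, with the cell numbers of the study's supplement. This left 131070 to 2035380 reads per library. The deposited positions of the segments in the CDR3 were used in no test.

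Groups came from the sample titles, and tumor fragments were added. TRBJ1-6, the clones, the form of the TRBV26 CDR3s and the tests were chosen with earlier results of these data known. Named were the clones with the highest mean frequency over both sides (2 per mouse for CD8+ tumors, 1 for the other groups), up to 3 amino acid clones of CD8+ tumors of all 4 mice, V segments with the highest shares or the 2 highest and 2 lowest ratios, and the 2 J segments with the most similar read share. TRBV26 clones of the shared form and the 3 sequences of the amino acid clone of all 4 mice were chosen after their values were seen.

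P-values are from exact permutation tests, two-sided over 70 splits of 4 and 4 mice and one-sided over 24 pairings, tested on simulated data, with Benjamini-Hochberg adjustment at 0.05. Left, right, CD4+ and CD8+ samples with the same number are from 1 mouse, and left and right deviations of log2 read share from the group means went together (r = 0.99 over 16 pairs, 0.75 to 1.00 within groups). Alternatives covered depth, the draw, read minimums of 2 and 6, a filter that drops a clone 100 or more times more frequent in a different mouse, added sides, amino acid clones, log2 shares, weighting by reads, the mouse as a replicate block and leaving out each mouse. The alternatives for the TRBV26 form and for amino acid clones of all 4 mice were chosen after seeing the data. Sequences and coordinates are from GENCODE vM21 (GRCm38). Python 3.11.15, numpy 2.4.6, pandas 2.3.3 and scipy 1.17.1 were used.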

Additional observations from a re-analysis of the deposited data

Results flagged for a closer look

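The clone share of TRBJ1-6 differed between tumor and dLN with opposite signs in the 2 subsets, in every mouse. In CD4+ T cells it was lower in the tumors than in the dLNs in 4 of 4 mice, by a mean of -0.284 percentage points, with mouse values of -0.211, -0.343, -0.375 and -0.207 in mice 5 to 8, a difference that did not pass its test (exact permutation p = 0.0571, adjusted 0.0857). In CD8+ T cells it was higher in the tumors in 4 of 4 mice, by a mean of 0.230 percentage points, with mouse values of 0.286, 0.0133, 0.240 and 0.379, so that mouse 6 was close to 0. The CD8+ difference was not tested. The difference between the subsets was not tested, since TRBJ1-6 was chosen from the CD8+ tumors. Opposite signs were not particular to TRBJ1-6: the means had them in 7 of the 12 J segments, and every mouse in 5 of 12. In dLNs only CD44hi cells were sorted, so organ and gate cannot be told apart.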

How the results depend on the processing

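Under a replicate block by mouse, the smallest p over 16 sign changes is 0.125, so no result could pass. The called differences fitted with the block all had that p, namely CDR3 length, CD4+ tumor minus dLN (0.148) and CD4+ minus CD8+ dLN (-0.283), clone share between the dLNs (0.303), and length against other J segments (0.279, 0.423 and 0.311 in CD4+ dLN, CD8+ dLN and CD4+ tumor). The V segments were not fitted with the block, under which their 15 CD8+ dLN and 13 CD4+ dLN calls could not pass either. The read share differences and the clone share of CD4+ tumor minus dLN did not pass with or without it. The clone share of CD4+ tumor minus dLN passed with at least 6 reads (-0.330), with added sides (-0.362) and with amino acid clones (-0.296), while the difference between the dLNs was lost with amino acid clones (0.255). The length difference of CD4+ tumor and dLN was lost with at least 6 reads (0.103) and turned with weighting by reads (-0.0506), which also took the differences between the dLNs (-0.355) and against other J segments in CD4+ tumors (0.331) over the threshold. The cause was not tested. The mean CD8+ tumor clone share moved to 3.23% with amino acid clones.

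V segments called in CD4+ dLNs went from 13 to 0 at equal depth, with at least 2 or at least 6 reads, with amino acid clones and by read shares. There 7 to 11 of 20 V segments still had an unadjusted p under 0.05, and with 20 tests and a smallest p of 0.0286, 12 are needed for any to pass. TRBV4 turned to -0.604 in CD4+ and 0.0117 in CD8+ dLNs by read shares, and in CD4+ tumors TRBV12-1 turned to -0.609 and TRBV31 to -0.0236, all differences of shares in percentage points of which only that of TRBV4 in CD4+ dLNs had passed. V segments could not be called without a mouse.

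Leaving out each mouse allows no p under 0.10, so only values are given. The CD8+ tumor read share was 4.30% to 10.1% (lowest without mouse 6) and its clone share 3.13% to 3.18%. TRBV26 clones of the shared form held a mean of 2.85% to 8.35% of CD8+ tumor reads, again lowest without mouse 6. The read share differences were 0.415 to 1.29 (CD4+ tumor and dLN) and 0.156 to 0.463 (dLNs), those of the clone share -0.310 to -0.254 and 0.2499 to 0.351, and those of length 0.128 to 0.179 and -0.296 to -0.277. Length against other J segments differed by 0.264 to 0.290 in CD4+ dLN, 0.417 to 0.436 in CD8+ dLN and 0.295 to 0.326 in CD4+ tumor. Within minus between mice, the read share was -0.543 to -0.154 in CD4+ dLN, -1.65 to -0.552 in CD4+ tumor and -0.174 to -0.0380 in CD8+ dLN.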
